A study of Mus musculus with 2 samples.

Results

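Cell cycle and DNA replication genes of the mouse small intestine were taken by symbol: 41 genes named in a list, matched by their Ensembl identifiers, of 43346 Ensembl genes in the tables. All 41 were found in both libraries. By their known roles, 11 are S phase genes, 9 control the step from G1 into S phase, 19 are mitotic genes and 2 are inhibitors of cyclin-dependent kinases. Poly(A)-selected RNA was sequenced from C57BL/6J mice, an inbred laboratory strain, at 8 weeks of age. There was 1 group of 2 libraries, biological replicates 1 and 2, each from intestine pooled from male and female littermates, with no treatment and no named segment. Bulk tissue mixes dividing crypt cells with non-dividing villus, muscle and immune cells, so fewer dividing cells and less RNA per dividing cell cannot be told apart. The number of animals behind each library is not given in the sources used here, so the spread between the libraries may include differences between pools as well as technical differences.

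A dividing cell passes from G1 into S phase, where DNA is copied, and through G2 into mitosis, where the copies are separated. Cyclin D with Cdk4 or Cdk6, and cyclin E with Cdk2, release E2F transcription factors from the retinoblastoma protein, and E2F then activates genes of DNA synthesis. Mitotic genes are switched on later, in large part by the MuvB complex with B-Myb and FoxM1, which acts at promoters holding a short element called CHR, often with CCAAT boxes bound by NF-Y upstream of it. In the small intestine, division is known to be confined largely to the crypts, where stem cells and transit-amplifying cells cycle fast, and cells leave the cycle as they move onto the villus.

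The promoters of a few members show these elements. RefSeq windows on GRCm38.p6, each from 250 bases before to 50 bases after an annotated start, were found for 35 of the 41 genes; Ccnd1, Ccnd2, Ccne2, Ccna2, Aurkb and Mcm4 had none. The 120 bases directly before the start are printed 5′ to 3′ on the gene's strand, for an S phase gene with E2F letters, an S phase gene without them and 4 mitotic genes. Capitals mark the searched letters on either strand: the E2F letters TTTCCCGC, TTTCGCGC, TTTGCCGC or TTTGGCGC, the CHR letters TTTGAA, which read TTCAAA on the other strand, and the CCAAT box, which reads ATTGG there. The windows are Mcm6 at chr1:128359706-128359825 (minus strand), Pcna at chr2:132253181-132253300 (minus), Cdc20 at chr4:118437344-118437463 (minus), Cdk1 at chr10:69352913-69353032 (minus), Top2a at chr11:99024190-99024309 (minus) and Ube2c at chr2:164769809-164769928 (plus).
Mcm6: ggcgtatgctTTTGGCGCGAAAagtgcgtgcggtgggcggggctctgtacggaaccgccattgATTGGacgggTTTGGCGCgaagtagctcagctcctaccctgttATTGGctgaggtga
Pcna: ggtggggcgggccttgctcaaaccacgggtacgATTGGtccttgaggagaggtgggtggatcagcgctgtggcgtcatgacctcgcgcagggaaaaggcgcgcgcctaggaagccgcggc
Cdc20: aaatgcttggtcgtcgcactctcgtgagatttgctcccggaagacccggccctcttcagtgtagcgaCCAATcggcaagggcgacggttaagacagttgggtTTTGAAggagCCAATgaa
Cdk1: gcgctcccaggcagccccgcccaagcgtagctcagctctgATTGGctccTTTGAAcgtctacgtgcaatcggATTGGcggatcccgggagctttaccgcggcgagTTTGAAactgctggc
Top2a: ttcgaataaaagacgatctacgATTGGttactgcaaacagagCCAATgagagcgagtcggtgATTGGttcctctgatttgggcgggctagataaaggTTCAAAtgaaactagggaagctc
Ube2c: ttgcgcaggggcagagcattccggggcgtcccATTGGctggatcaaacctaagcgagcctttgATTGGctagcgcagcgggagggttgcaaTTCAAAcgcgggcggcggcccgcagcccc
In Mcm6 the first run of capitals holds 2 overlapping E2F matches, 1 on each strand, beginning 110 and 106 bases before the start. The CHR letters of Cdc20 begin 18 bases before the start, and those of Ube2c 29 bases before it. In Top2a they begin 23 bases before the start, with a further match 179 bases before it that lies outside the printed stretch. Cdk1 holds CHR letters beginning 71 and 15 bases before the start, and E2F letters 131 bases before it, also outside the printed stretch.

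Over the whole windows, the CHR letters were present in 13 of 17 mitotic genes, in 1 of 10 S phase genes (Mcm2), in 0 of 6 G1/S control genes and in 0 of 2 inhibitors. The same letters occur in 20.2% of the 27025 genes with a window. The 13 were Aurka, Bub1b, Ccnb2, Cdc20, Cdk1, Cenpa, Cenpf, Kif11, Kif23, Mki67, Plk1, Top2a and Ube2c. The E2F letters were present in 4 of 10 S phase genes (Mcm3, Mcm5, Mcm6 and Mcm7), in Cdk2 of the G1/S control genes and in Cdk1 of the mitotic genes, against 2.6% of all genes with a window. CCAAT, a shorter run of letters, was in 16 of 17 mitotic genes, all but Birc5, in 8 of 10 S phase genes, in 2 of 6 G1/S control genes and in 1 of 2 inhibitors, against 41.1% of all genes. These counts describe letters in a fixed window, and a gene without a match may hold other forms of the element or hold it elsewhere.

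**Figure D1:**
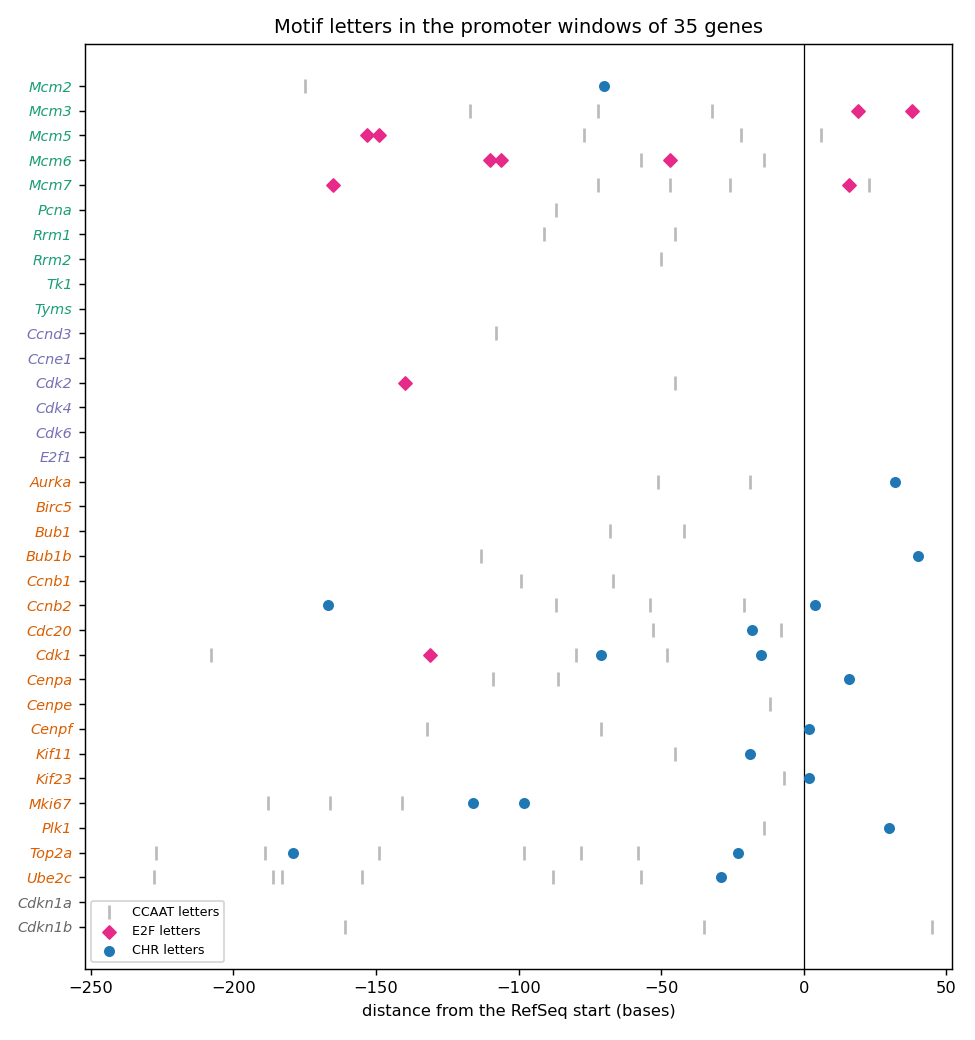
Positions of the E2F letters (diamonds), CHR letters (circles) and CCAAT letters (grey ticks) in the promoter windows of 35 genes, in bases from the RefSeq start, with gene names coloured by role (S phase green, G1/S control purple, mitotic orange, inhibitors grey). Circles lie in 13 of 17 mitotic genes and in 1 of 10 S phase genes, and diamonds lie in 4 of 10 S phase genes.

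Depth was close in both libraries, with 45472946 expected counts (estimated fragments per gene, which need not be whole) in replicate 1 and 45822403 in replicate 2. With 3 counts as the limit that a count of 0 sets, the smallest share that could be missed was 6.60e-06% of replicate 1 and 6.55e-06% of replicate 2, for counting error only. Levels are in TPM, which scales each library to a fixed total of transcripts and corrects for length, and each carries the credibility interval deposited with it, whose level is not stated in the file. All 10 enterocyte markers and all 10 crypt stem cell markers, such as Lgr5 and Olfm4, were above 1 TPM in both libraries. Replicate 1 stood apart in tissue makeup: 15 genes of the exocrine pancreas held 272620 TPM there and 1792 TPM in the other library, and 10 stomach genes summed to 19753 and 51.5 TPM. Since TPM is a share, RNA of other organs lowers the TPM in replicate 1 of genes that those organs do not express. Genes that the other organs do express may also gain reads there. To allow for the lowering, each gene was compared between libraries with the median gene, as described below. That comparison does not remove reads gained from other organs. How much such reads add to the cell cycle and DNA replication genes in replicate 1 was not tested.

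Counting a gene as detected where both libraries reached 1 TPM, 34 of the 41 genes were detected, against 49.3% of 21474 protein-coding genes. The 7 below were Ccne2, Kif23, Mki67, Cenpf, Kif11, Bub1 and Cenpe, of which Kif23 and Mki67 passed in replicate 2. The 41 genes held 417 TPM of replicate 1 and 943 TPM of replicate 2. Of that, 71.4 and 253 TPM came from 1 gene, Cdkn1a. The ranking of the 41 genes was nearly the same in both libraries, with Spearman's rho of 0.99 over all 41. Over the 12260 genes with a mean TPM of at least 1, rho was 0.90. Only 36 of the 41 genes pass that filter, so the 2 values rest on unlike sets. These correlations are across genes of the same 2 libraries, and genes are not independent replicates.

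**Figure D2:**
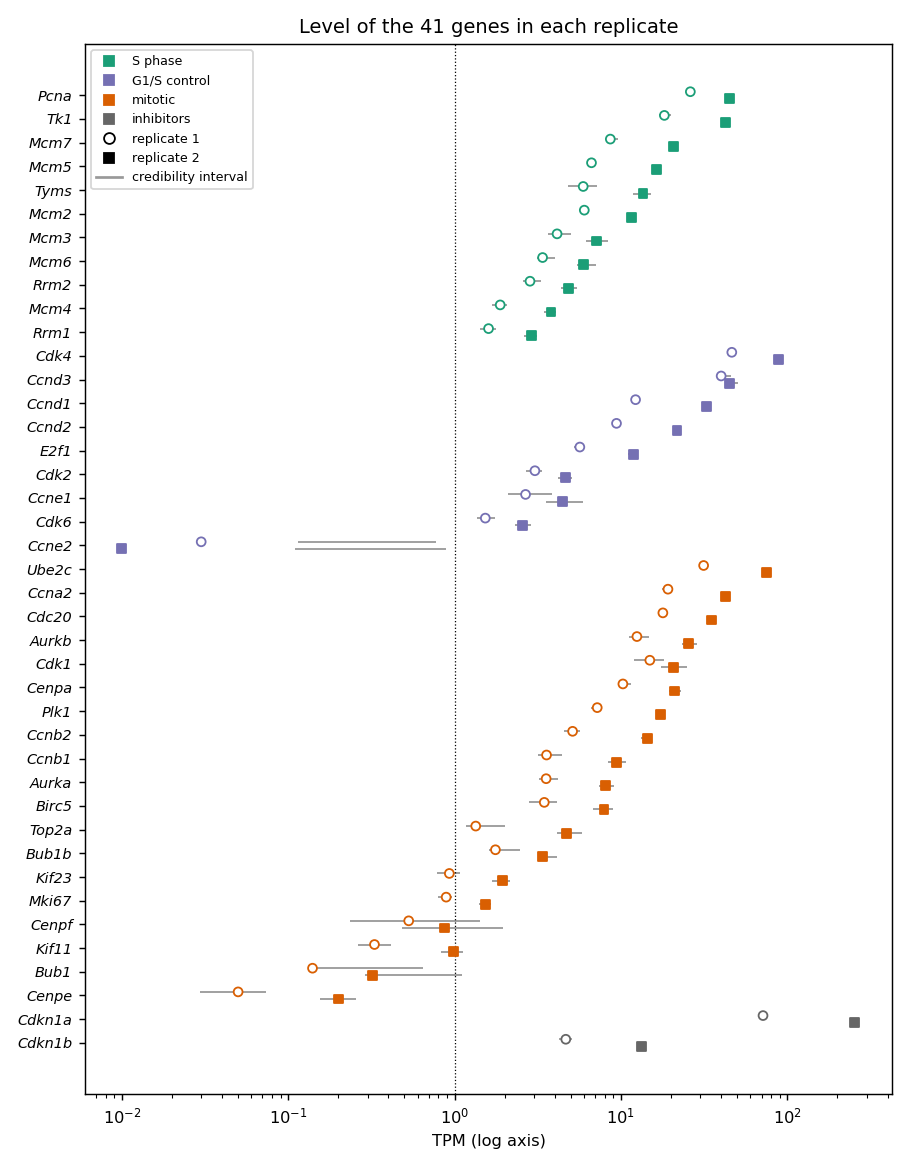
TPM of each of the 41 genes on a log axis in replicate 1 (open circles) and replicate 2 (filled squares), coloured by role, with the deposited credibility interval as a grey line and a dotted line at 1 TPM. Replicate 2 lies to the right of replicate 1 for 40 of the 41 genes, Ccne2 being the exception.

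S phase genes were all detected, from 1.60 to 26.1 TPM in replicate 1, and in replicate 2 from 2.90 to 44.97 TPM. Pcna, the sliding clamp that holds DNA polymerase on the template (chromosome 2, 132249162 to 132253314, GRCm38), was the most abundant of them at 26.1 and 44.97 TPM, a mean of 35.5 ± 13.3 TPM (SD, n = 2). Tk1, thymidine kinase of the salvage pathway, followed at 18.2 and 42.5 TPM. Tyms, thymidylate synthase, which makes the same nucleotide anew, stood at 5.93 and 13.6 TPM. The subunits of ribonucleotide reductase, which makes deoxyribonucleotides, were lower: Rrm2 at 2.84 and 4.81 TPM and Rrm1 at 1.60 and 2.90 TPM. For all 11 genes the interval of replicate 2 lay wholly above that of replicate 1, as it did in 73.5% of all genes with a mean TPM of at least 1, before any allowance for the pancreas RNA of replicate 1.

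The 6 subunits of the MCM helicase, which unwinds DNA at the fork as a ring of 1 copy each, did not have equal RNA levels. Mcm7 was highest at 8.63 and 20.6 TPM, then Mcm5 at 6.65 and 16.3 TPM and Mcm2 at 6.02 and 11.6 TPM. Mcm3 stood at 4.13 and 7.14 TPM, Mcm6 at 3.38 and 5.96 TPM and Mcm4 at 1.88 and 3.80 TPM. That order held in both libraries, although the intervals of Mcm3 and Mcm6 overlapped in each and those of Mcm5 and Mcm2 in replicate 1, and Mcm7 was 4.59-fold above Mcm4 in replicate 1 and 5.42-fold in replicate 2. Mcm7 shares exon bases with Cops6 and Ap4m1 on the opposite strand. Whether counting used the strand is not given in the sources used here, so reads of such pairs cannot be told apart with certainty.

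Among G1/S control genes, replicate 1 had levels from 0.03 to 46.4 TPM and replicate 2 from 0.01 to 88.6 TPM. Cdk4, the kinase partner of D-type cyclins (chromosome 10, 127063534 to 127067920), stood at 46.4 and 88.6 TPM, a mean of 67.5 ± 29.9 TPM (SD, n = 2), next below Cdkn1a among the 41 genes. With protein-coding transcripts only, Cdk4 had 37.6 and 46.3 TPM, below Ccnd3 in replicate 1 and below Ube2c in replicate 2. The related Cdk6 was at 1.53 and 2.56 TPM, so Cdk4, over all its transcripts, exceeded it 30.3-fold in replicate 1 and 34.6-fold in replicate 2. Among D-type cyclins, Ccnd3 had 40.01 and 44.95 TPM, Ccnd1 12.2 and 32.8 TPM, and Ccnd2 9.40 and 21.7 TPM, so the order was Ccnd3, Ccnd1, Ccnd2 in both libraries. Ccnd3 exceeded Ccnd1 by 27.8 TPM in replicate 1 but by 12.2 TPM in replicate 2.

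The cyclin E pair was unequal. Ccne1 stood at 2.67 and 4.46 TPM from 183 and 192 expected counts, with overlapping intervals. Ccne2 had 4 counts in replicate 1 and 1 in replicate 2 and is listed at 0.03 and 0.01 TPM. Its deposited intervals, 0.114 to 0.771 TPM and 0.110 to 0.887 TPM, lie above those values, so its level is known only to be low. Cdk2, the partner of cyclin E, was at 3.04 and 4.66 TPM, and E2f1, an activating E2F factor, at 5.66 and 11.9 TPM. Cdk4 shares 641 exon bases with Tspan31 on the opposite strand, itself at 24.1 and 37.1 TPM, and Ccnd1 shares exon bases with LTO1 at 4.97 and 11.2 TPM.

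Levels of mitotic genes ran from 0.05 to 31.4 TPM in replicate 1, and in replicate 2 from 0.20 to 74.7 TPM. Highest was Ube2c, the ubiquitin-conjugating enzyme of the anaphase-promoting complex (chromosome 2, 164769898 to 164778822), with 31.4 and 74.7 TPM, a mean of 53.0 ± 30.6 TPM (SD, n = 2). Cdc20, which activates that complex, had 17.9 and 35.03 TPM. Both lay well above the spindle checkpoint genes, whose products restrain it, Bub1b at 1.76 and 3.36 TPM and Bub1 at 0.14 and 0.32 TPM, the latter from 9 and 27 counts.

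Among mitotic cyclins and kinases, Ccna2 (cyclin A2) had 19.2 and 42.7 TPM, Ccnb2 5.12 and 14.4 TPM and Ccnb1 3.57 and 9.35 TPM. With protein-coding transcripts only, Ccna2 had 4.26 and 9.36 TPM, below Ccnb2, whose values stayed the same. Cdk1, the kinase of these cyclins, had 14.9 and 20.8 TPM, with overlapping intervals. Aurkb, the kinase of the chromosomal passenger complex, stood at 12.5 and 25.5 TPM, above its partner Birc5 (survivin) at 3.46 and 7.91 TPM. Plk1, a kinase of mitotic entry and exit, had 7.20 and 17.3 TPM, and Aurka, a kinase of the spindle poles, 3.55 and 8.10 TPM.

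Chromosome and spindle genes were lower, apart from Cenpa, the histone variant of centromeres, at 10.3 and 20.99 TPM. Of this, the protein-coding transcripts of Cenpa held only 1.38 and 3.91 TPM. Top2a, the topoisomerase that untangles sister chromatids, had 1.34 and 4.72 TPM. Mki67, which encodes the proliferation antigen Ki-67 that coats mitotic chromosomes, had 0.89 and 1.54 TPM, but from 443 and 599 counts, since its transcript is 10075 nt long. The motor proteins Kif23, at 0.93 and 1.94 TPM, and Kif11, at 0.33 and 0.98 TPM, were in the same low range. Cenpf, at 0.53 and 0.87 TPM, and Cenpe, at 0.05 and 0.20 TPM, act at the kinetochore; Cenpf overlapped Kif11 in both libraries and Cenpe lay below both. That place of Cenpf rests on few counts. Its 358 nt transcript Cenpf-202 held 84.1% and 54.8% of its TPM on 2.76 and 2.65 counts. The long coding Cenpf-204 had 0.05 and 0.26 TPM, near the level of Cenpe. Per transcript, Ube2c exceeded Mki67 35.3-fold in replicate 1 and 48.5-fold in replicate 2, although both are mitotic genes.

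Both inhibitors were detected. Cdkn1a, which encodes p21, the inhibitor induced by p53 (chromosome 17, 29090976 to 29100727), had 71.4 TPM from 5712 counts in replicate 1 and 253 TPM from 15731 counts in replicate 2, a mean of 162 ± 128 TPM (SD, n = 2). It was the most abundant of the 41 genes in each library and at percentile 94.3 of genes with a mean TPM of at least 1. Cdkn1b, which encodes p27, had 4.66 and 13.4 TPM. For Cdkn1a the intervals, 69.1 to 74.1 TPM and 243 to 258 TPM, lay far apart.

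The transcripts behind each gene's TPM were then examined. Transcripts annotated as retained intron keep an intron, and those annotated for nonsense-mediated decay carry an early stop codon that marks them for degradation. Among the 27 genes with 2 or more annotated transcripts and a mean TPM of at least 1, the leading transcript was not protein-coding in 5, against 17.7% of 8400 such protein-coding genes, a share near that of the members. The members' median protein-coding share of TPM, 93.5%, was also near the 93.4% of all such genes. The 5 genes are described because their gene-level TPM rests on these forms. These were Tyms of the S phase genes and Ccna2, Cdk1, Cenpa and Top2a of the mitotic genes. By role, the median share was 57.7% over the 11 mitotic genes, 89.4% over the 7 S phase genes and 99.0% over the 7 G1/S control genes.

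Ccna2 shows the pattern most simply. Its retained-intron transcript Ccna2-202, 856 nt long, carried 77.6% of the gene's TPM in replicate 1 and 78.1% in replicate 2, and the protein-coding Ccna2-201, 2964 nt long, carried 22.2% and 21.9%. By counts the order was the reverse, 469 and 838 for the short transcript and 591 and 1012 for the coding one, because TPM divides by length. Cdk1 was the same in kind: Cdk1-203, a retained-intron transcript of 378 nt, held 72.3% and 64.5% of TPM on 78.1 and 84.6 counts, while the coding Cdk1-202 held 22.7% and 27.3% on 175 and 231 counts. The TPM of Cdk1 as a gene therefore rests in large part on the few counts of that short transcript.

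In Cenpa, by contrast, the leading transcript led by counts as well. Cenpa-202, annotated for nonsense-mediated decay and 1151 nt long, held 73.0% and 72.8% of TPM with 349 and 562 counts, and the coding Cenpa-205, 1354 nt long, held 13.4% and 13.9% with 78.4 and 131 counts. Top2a had 62.3% and 65.6% of its TPM in Top2a-207, a processed transcript of 803 nt with 24.1 and 71.3 counts, whereas the coding Top2a-201 had 93.5 and 252 counts. Tyms was split over Tyms-205, annotated for nonsense-mediated decay, with 37.8% and 39.2%, the retained-intron Tyms-202 with 20.9% and 36.9%, and the coding Tyms-201 with 28.1% and 13.9%. By counts Tyms-201 led there too, with 248 and 219 against 64.0 and 121 for Tyms-205. In each of these 5 genes the leading transcript was the same in both libraries.

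The leading transcript was the same in both libraries in 34 of the 36 genes with a mean TPM of at least 1. Among genes with 2 or more transcripts it was the same in 25 of 27, against 84.7% of 8652 genes. Ccnb1 was one exception: the coding Ccnb1-202 held 62.6% in replicate 1 and 26.4% in replicate 2, and the retained-intron Ccnb1-204 held 14.7% and 65.8%. The coding transcripts of Ccnb1 held 2.99 TPM of replicate 1 and 2.95 TPM of replicate 2, so the higher total in replicate 2 lay in the retained-intron form. Ccne1 was the other, with the coding Ccne1-201 at 69.7% and 49.6% and the decay-annotated Ccne1-202 at 30.4% and 50.4%. Cdk4 kept its leading transcript, but its coding share was 81.1% in replicate 1 and 52.3% in replicate 2.

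**Figure D3:**
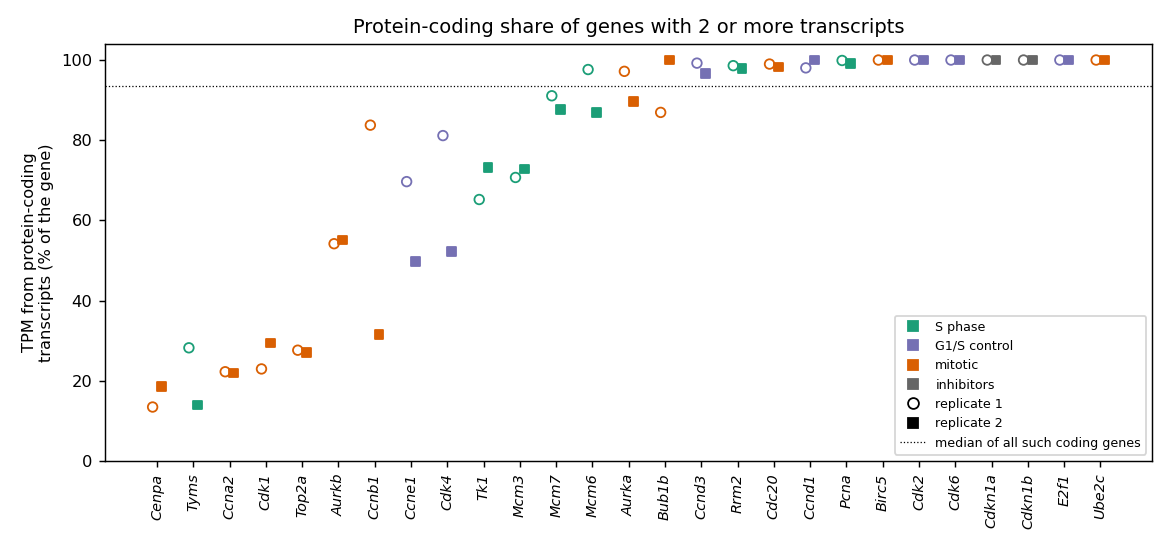
Percent of each gene's TPM from protein-coding transcripts in replicate 1 (open circles) and replicate 2 (filled squares), for the 27 genes with 2 or more transcripts and a mean TPM of at least 1, coloured by role, with a dotted line at the median of all such genes. Cenpa, Tyms, Ccna2, Cdk1 and Top2a lie below 30% in both libraries, and Ccnb1 is at 83.8% in replicate 1 and 31.6% in replicate 2.

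The libraries were compared by the log2 ratio of TPM plus 1, replicate 2 over replicate 1, minus that of the median gene. The median gene itself was at 0.66 over 12260 genes with a mean TPM of at least 1, and all ratios below are relative to it. With 1 library on each side, a gene was called at 2-fold and no test was made. Of the 36 members with a mean TPM of at least 1, only Cdkn1a was called higher in replicate 2, at 1.15, against 5.03% of all 12260 genes. None was called lower, against 6.32% of all genes. Cdkn1a stayed past 2-fold under each of the other scalings, pseudocounts and filters tried, with ratios of 1.01 to 1.81, and it missed a 3-fold threshold.

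The members had a median ratio of 0.29, and 19 of the 36 lay within the middle 50% of all genes, from -0.35 to 0.33. By role, the median was 0.10 for S phase genes, 0.08 for G1/S control genes, 0.33 for mitotic genes and 0.91 for the 2 inhibitors. For G1/S control genes the sign turned, to -0.05 with counts scaled by TMM or DESeq2 factors and to -0.17 with protein-coding transcripts only, and for the other roles it stayed positive under every scaling tried. Below Cdkn1a came Ccnd1 at 0.69, Cdkn1b at 0.68, Ccnb2 at 0.67 and Top2a at 0.63. The lowest was Ccnd3 at -0.50, so the D-type cyclins lay at both ends of the list, with Ccnd2 at 0.46 between them. Before centring, all 36 genes were higher in replicate 2, and Ccnd3 was so by 0.16. Intervals lay apart with replicate 2 above in 33 of the 36 genes, against 73.5% of all genes, and overlapped in Ccnd3, Ccne1 and Cdk1.

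Several markers differed between the same libraries. Beside the pancreas and stomach genes, 6 of 10 enterocyte markers were called higher in replicate 2 and 1 lower, with summed levels of 9289 and 23569 TPM. Crypt stem cell markers had a median ratio of -0.17, with 1 of 10 called higher (Axin2, a Wnt target, at 1.26), and summed to 228 and 304 TPM. Genes of germinal centre B cells, a further dividing population of gut lymphoid tissue, summed to 31.0 and 73.1 TPM with a median ratio of 0.48, and Rgs13, one of them, had 0 and 0.06 TPM. Plasma cell genes had a median ratio of 0.14 and T cell genes one of -0.33. The part of these cells in the members' ratios was not tested. With the pancreas and stomach lists taken out and TPM rescaled, the members' median ratio without centring was 0.51 and that of all genes 0.26.

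**Figure D4:**
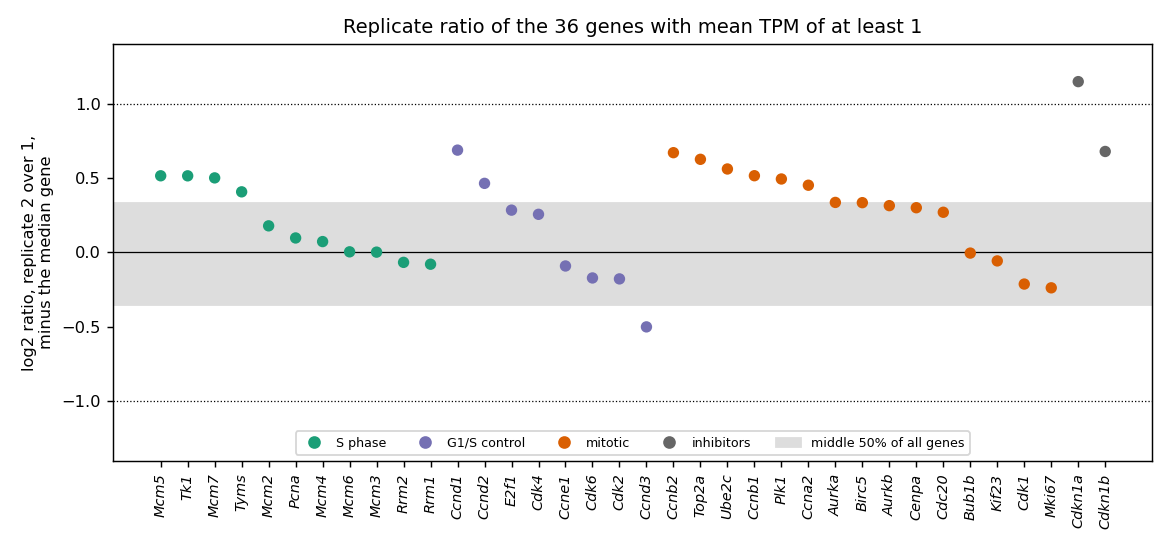
Log2 ratio of replicate 2 over replicate 1, minus that of the median gene, for the 36 genes with a mean TPM of at least 1, coloured by role, with dotted lines at 2-fold and a grey band over the middle 50% of all genes. Cdkn1a alone lies past the upper line, and Ccnd3 is lowest at -0.50.

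S phase and mitotic members were set against each other within each library, where scaling between libraries has no part. The median S phase gene exceeded the median mitotic gene by 0.61 log2 units in replicate 1 and by 0.47 in replicate 2, a mean of 0.54 ± 0.098 (SD, n = 2). It depended on which genes were counted. Without genes over 3000 nt, leaving 7 S phase and 14 mitotic genes, the median S phase gene was lower, by -0.03 in replicate 1 and -0.21 in replicate 2. Length here is the deposited gene length, an average over a gene's transcripts by their share of TPM. Some genes with long coding transcripts therefore count as short. Top2a counts as 2020 nt and Cenpf as 2761 nt, although Top2a-201 has 5221 nt and the coding Cenpf-204 has 11130 nt. Summed over all genes, the 19 mitotic genes had more TPM, 135 and 291, than the 11 S phase genes, 85.4 and 174. With protein-coding transcripts only, the gap was 0.10 and 0.34.

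The replicate ratio of the S phase genes was below that of the mitotic genes by a difference of medians of -0.20, taken over all members of both sets. Over members with a mean TPM of at least 1 only, the difference of medians was -0.24. The difference of means over all members was 0.039, of the opposite sign. Those means take in mitotic genes under 1 TPM, whose ratios the pseudocount shrinks. With protein-coding transcripts only, the difference of medians was -0.048. Among members with a mean TPM of at least 1, ratios relative to the median gene ran from -0.08 to 0.51 in the S phase set. In the mitotic set they ran from -0.24 to 0.67, so the ranges overlapped. Below that level the pseudocount shrinks ratios and can turn their sign. Cenpe, at 0.05 and 0.20 TPM, came out at -0.47, although its plain TPM ratio was 4.00.

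Members with a longer deposited gene length had lower TPM. Spearman's rho between length and mean TPM was -0.59 over the 36 genes with a mean TPM of at least 1, -0.79 over the 15 mitotic and -0.63 over the 11 S phase genes among them, beside -0.29 over 11475 protein-coding genes under the same filter. These are descriptions across genes that share both libraries, and length enters the calculation of TPM. The deposited length also depends on the estimated transcript shares. A short transcript with a large share both shortens the gene and raises its TPM. Ccna2, for one, counts as 1321 nt, while its coding transcript has 2964 nt. How much of each rho comes from this was not tested. Of the 13 members over 3000 nt, 5 were under a mean of 2 TPM, and of the 18 under 2000 nt, 1 was. Of the same 36 genes, 19 (52.8%) lay below the median coding gene of like length, with 9 of 15 mitotic genes, 6 of 11 S phase genes and 4 of 8 G1/S control genes, near the share that a median sets. Mki67, with a mean of 1.22 TPM, was set against 4.26 TPM in the longest class, and Cdkn1a, with 162 TPM, against 12.01 TPM in its own.

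**Figure D5:**
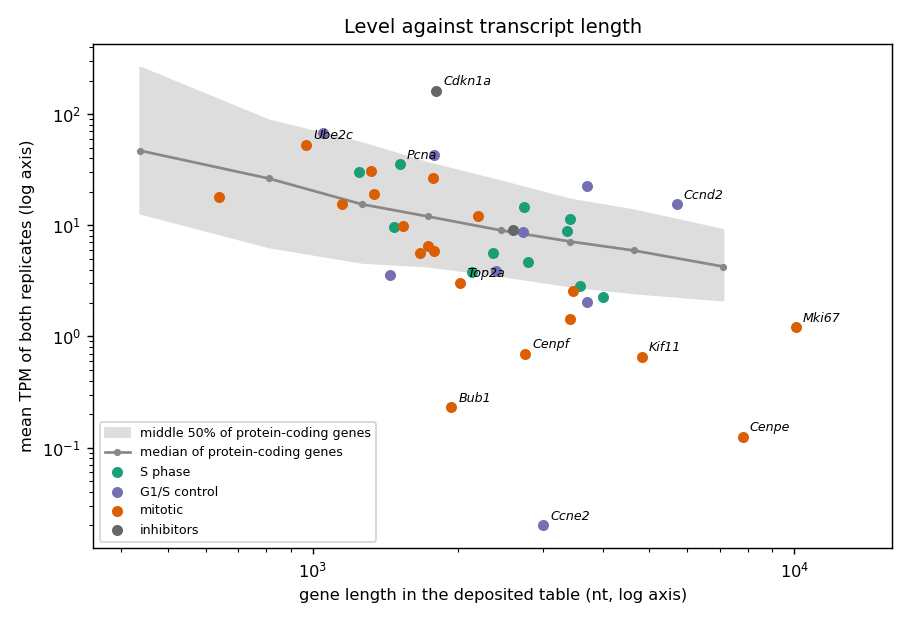
Mean TPM of both replicates against the length in the deposited table, both on log axes, for the 41 genes coloured by role, with the median (line) and the middle 50% (grey band) of protein-coding genes with a mean TPM of at least 1 in 8 length classes. Bub1, Cenpf, Kif11 and Ccne2 are among the genes below the band, and Cdkn1a is among those above it. Cenpe and Mki67 lie beyond the right end of the band, which stops at 7113 nt. Genes under a mean of 1 TPM fall below the band by its definition.

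Other genes of the same pathways were read against the same shares of all genes, 49.3% of coding genes detected, 5.03% called higher and 6.32% called lower. Of 40 further replication genes, 26 were detected in both libraries, and of the 31 with a mean TPM of at least 1 none was called higher and 1 lower. Their ratios split into 16 above and 15 below the median gene, with a median of 0.06, against 26 above and 10 below among the members. The other 3 lists below also had more genes above it. The split was 18 and 6 for mitosis, 14 and 8 for retinoblastoma and E2F, and 11 and 3 for the anaphase-promoting complex. Highest among the further replication genes were Pold2 at 106 and 108 TPM and Pold1 at 31.1 and 62.8 TPM, subunits of DNA polymerase delta. Cdt1, which loads the MCM helicase, followed at 20.9 and 42.0 TPM. Pola2, a subunit of DNA polymerase alpha, had the highest ratio, 0.76. The gene called lower was Orc2 of the origin recognition complex, at -1.12 with overlapping intervals. Under 1 TPM in both libraries were Orc1, Orc5, Cdc6, Gins1, Gins3, Pola1, Rfc4 and Rpa3.

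Of 40 further mitosis genes, 21 were detected in both libraries, a share near that of all coding genes, and none of the 24 with a mean TPM of at least 1 was called in either direction, with a median ratio of 0.14. Cdca3 was highest at 25.9 and 43.7 TPM, and Ncapd2, a condensin subunit, had 19.4 and 43.4 TPM. The ratios ran from -0.49 for Pttg1 (securin) to 0.76 for Smc4, another condensin subunit.

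Of 24 genes of the retinoblastoma and E2F pathway and further inhibitors, 20 were detected in both libraries, none of the 22 compared was called, and the median ratio was 0.19. Cdkn2b, which encodes the Cdk4 and Cdk6 inhibitor p15, had 109 and 229 TPM, whereas Cdkn2a had 0.31 and 0.76 TPM. E2f4, a mainly repressive E2F factor, had 57.9 and 122 TPM, 10.2-fold above E2f1 in replicate 1 and 10.3-fold above it in replicate 2. The ratios ran from -0.84 for Cdkn1c to 0.72 for Tfdp2. Of 17 genes of the anaphase-promoting complex and its regulators, 14 were detected in both libraries, none was called, and the median ratio was 0.16. Ube2s, which extends the ubiquitin chains begun by Ube2c, had 79.2 and 120 TPM, and Fzr1, the activator that follows Cdc20, had 56.6 and 109 TPM.

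Pseudogenes could take reads from members. The annotation lists 5 named as copies of members: Ccnb1-ps, Ccnb2-ps, Ccnd3-ps, Pcna-ps1 and Pcna-ps2. Each had at most 0.15 TPM in either library.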

How the data were processed

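Deposited gene and transcript tables of 2 RNA-seq libraries of small intestine were used. Poly(A)+ RNA longer than 200 nt, freed of ribosomal RNA, was read from both ends (stranded, 76 nt) on an Illumina GAIIx with spike-ins, per the labels. Per the text deposited beside the tables, they derive from transcriptome alignments on mm10 with annotation M4; which aligner and quantifier were run is not given in the sources used here. The authors deposited expected counts, TPM and FPKM values, the percent of each gene's TPM from each transcript, and posterior means and credibility intervals. TPM divides by effective length, which depends on the mean fragment (237 nt in replicate 1, 219 nt in replicate 2), so short transcripts get high TPM from few counts.

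Symbols and coordinates came from GENCODE M21 (GRCm38), which matched 42462 of 43346 genes (98.0%). Replicate ratios used log2(TPM + 1), genes of mean TPM 1 or more and a 2-fold threshold, centred on the median gene; the pseudocount understates ratios of low genes. With 1 group of 2 libraries there was no test between groups and no p-value. The authors' expected counts, scaled with TMM factors (edgeR 4.0.16) or DESeq2 1.42.0 size factors in R 4.3.3, served as alternatives. Promoter letters were searched on both strands of RefSeq windows (GRCm38.p6), and a gene counted once if any of its windows held them. Other values came from Python 3.11.15 with pandas 2.3.3. The ratio and its call were tested on simulated data with counting error and a uniform shift between libraries. The simulation held no biological spread and no RNA of other organs, so it does not cover these. Any member may be named, and genes of the other lists were named by level (the highest 3), by ratio (highest and lowest) or by being under 1 TPM in both libraries; markers may all be named. The members, the lists and the rule for named genes were chosen with earlier results of these data known.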

Additional observations from a re-analysis of the deposited data

How the results depend on the processing

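No paired analysis was possible because there is 1 group. The count of genes called higher was 1 under FPKM, posterior mean TPM, both count scalings, pseudocounts of 0.1 and 0.5, a mean TPM of at least 5, the rescaled TPM without pancreas and stomach genes, and protein-coding transcripts only, an alternative chosen after seeing the data. It was 15 without centring, 13 when centred on the median spike-in RNA, 4 with no filter on low values, 5 at 1.5-fold and 0 at 3-fold, and no setting called a gene lower. Over all genes, 44.3% of calls were higher in replicate 2, against 88.9% without centring, 85.2% with spike-ins, 66.1% with the rescaled TPM and 67.8% with no filter. The members' median ratio of 0.29 became 0.96 without centring, 0.86 with spike-ins, 0.51 with the rescaled TPM and 0.59 with no filter, where the median of all genes falls from 0.66 to 0.33; elsewhere it was 0.18 to 0.32. Detected members numbered 34, and 20 at a minimum of 5 TPM; with 1 library left out the count was 34 to 36. The S phase minus mitotic level of 0.54 ranged from 0.47 to 0.61 with 1 library left out, and was -0.70 as a ratio of summed TPM, which counts 19 genes against 11. It was 0.22 with protein-coding transcripts only and -0.12 without members over 3000 nt in deposited length, both chosen after seeing the data. The matching difference of ratios, -0.20, was 0.039 as a difference of means and -0.048 with protein-coding transcripts only. Over members with a mean TPM of at least 1 only, also chosen after seeing the data, it was -0.24. The difference of means takes in mitotic members under 1 TPM, whose ratios the pseudocount shrinks. The part of these members in its sign, and the cause of the change with protein-coding transcripts, were not tested. Depth limits Ccne2, Bub1, Cenpe and Cenpf, with at most 131 counts in a library.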
